A study of Homo sapiens with 6 samples.

Results

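The interferon regulatory factor (IRF) genes examined were IRF1, IRF2, IRF3, IRF4, IRF5, IRF7, IRF8 and IRF9. These 8 genes were chosen by name from the family, out of 20162 protein-coding genes on the genome build of the H3K27Ac lists and 19121 on that of the H3K4me3 lists. Each gene was read with 20 kb on either side, and IRF8 also with the 100 kb that follow its end. IRF8 was set against the 7 other members.

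The peaks came from OCI-AML3, a human acute myeloid leukemia (AML) cell line with a heterozygous NPM1 mutation (mtNPM1), a DNMT3A mutation and a homozygous NRAS mutation, a background that the cells of both guides share. Into these cells went either sgNeg, a control guide RNA, or sgNpm1A, which is directed against mtNPM1 (mtNPM1 KO), and they were grown for 3 days per the labels, whereas the text of the study gives a longer time. H3K27Ac and H3K4me3 occupancy was profiled by ChIPmentation, in which Tn5 transposase tags the precipitated chromatin. The study asked whether these marks of active enhancers and promoters declined after mtNPM1 KO, and it placed IRF8 in the core regulatory circuitry. There were 4 peak lists, 1 library for each guide and mark, so no difference between guides has a replicate check, none was tested, and every comparison is between 2 libraries. The 4 lists describe transfected cells of 1 cell line as a whole, and the share of cells edited was not measured in these data.

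IRF proteins are transcription factors that share a DNA-binding domain and read GAAA repeats, in particular the interferon-stimulated response element (ISRE). IRF3, IRF5 and IRF7 act below sensors of microbial nucleic acids, IRF9 acts below the type I interferon receptor, IRF1 is itself induced by interferon-gamma through GAS elements, and IRF2 competes with IRF1 for DNA. IRF4 and IRF8 act in blood cells, often with the ETS factor PU.1 (SPI1) at composite elements (EICE), and IRF8 directs monocyte and dendritic cell development. H3K27Ac marks active promoters and enhancers, and H3K4me3 marks active promoters.

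The 250 bases before the main transcription start of the 7 members other than IRF8 were read from GRCh37. They were searched on both strands for GAS (TTCNNNGAA), ISRE (GAAA, any 2 bases, GAAA) and EICE (GGAA, any 2 bases, GAAA). The promoter stretches printed were picked for holding a match, so they show where it lies and not what all members share. IRF3, IRF4 and IRF5 had no match. GAS letters stood in 4 of 7 members, against 5.68% of 19862 promoter windows of the same length. Counted from the start, with the first base before it at -1, GAS letters began at -124 in IRF1, at -240 in IRF2, at -55 in IRF7 and at -63 in IRF9. None of the 7 windows held ISRE letters, which stood in 2.84% of all promoter windows, or EICE letters, which stood in 2.3%. The last sequence lies 86.5 kb past the IRF8 start, inside the downstream H3K27Ac peak with the highest fold at this locus. It was picked as the 250-base window with the most matches in that peak, where ISRE letters stood in only 9.84% of 61 windows. The window holds an overlapping pair of ISRE matches that share a GAAA, and a GAS match. Capitals mark the matched letters, and each sequence reads 5′ to 3′ on the named strand of GRCh37. A match describes letters and is not a measured binding site.
IRF1 promoter stretch, minus strand, chr5:131826546-131826625: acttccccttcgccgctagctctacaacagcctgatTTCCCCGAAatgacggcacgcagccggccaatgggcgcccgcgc
IRF2 promoter stretch, minus strand, chr4:185395875-185395954: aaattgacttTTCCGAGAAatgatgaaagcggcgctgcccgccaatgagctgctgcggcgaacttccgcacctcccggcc
IRF7 promoter stretch, minus strand, chr11:615962-616041: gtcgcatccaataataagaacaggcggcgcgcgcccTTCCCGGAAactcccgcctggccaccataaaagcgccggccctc
IRF9 promoter stretch, plus strand, chr14:24630375-24630454: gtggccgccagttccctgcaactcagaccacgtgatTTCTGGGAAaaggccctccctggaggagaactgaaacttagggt
IRF8 downstream window, plus strand, chr16:86019219-86019468: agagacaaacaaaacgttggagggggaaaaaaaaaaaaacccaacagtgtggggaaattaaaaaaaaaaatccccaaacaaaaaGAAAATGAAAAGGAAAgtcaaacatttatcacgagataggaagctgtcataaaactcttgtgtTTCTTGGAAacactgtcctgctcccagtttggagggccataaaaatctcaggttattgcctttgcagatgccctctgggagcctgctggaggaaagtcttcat

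The lists set the scale for all values at these genes. The sgNeg and sgNpm1A lists held 327715 and 317059 H3K27Ac peaks, and 353628 and 106641 H3K4me3 peaks. The lowest fold enrichment over background of a listed peak was 2.54 and 2.66 for H3K27Ac and 2.50 and 2.80 for H3K4me3. H3K27Ac coordinates were on GRCh37 and H3K4me3 coordinates on GRCh38. Every label gives OCI-AML3 as the cells, yet H3K27Ac lists were deposited under a name with a different tag from the H3K4me3 ones, whose meaning is not stated. If that tag named another line, the H3K27Ac values would not describe OCI-AML3. In sgNeg all 8 myeloid marker genes had an H3K27Ac promoter peak, at a median percentile of 97.1, but so had 4 of 4 B cell markers, at 68.0, 3 of 3 epithelial markers, at 69.7, and 2 of 3 each for T cell and erythroid markers. For H3K4me3, 5 of 8 myeloid, 0 of 4 B cell and 1 of 3 each of T cell, erythroid and epithelial markers had 1. A promoter peak at the NPM1 gene itself was listed in sgNeg at 7.02-fold for H3K27Ac and 10.6-fold for H3K4me3, and in neither sgNpm1A list, which is no check of the edit. The read depth behind the H3K27Ac peaks is unknown. For H3K4me3, every fold corresponded to a whole number of fragments over a constant background of 3.81 fragments in sgNeg and 2.93 in sgNpm1A (within 0.05 fragments), and the lowest listed pileup was 11 and 10 fragments, so that a start with fewer fragments was not listed.

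The H3K27Ac promoter peaks of the IRF genes lay in the upper part of the sgNeg list, and each gene ranked lower in the sgNpm1A list. A promoter here reached 1 kb to either side of any annotated start of the gene. The members had from 5 (IRF4) to 56 (IRF9) such starts, and the 20162 genes had 146566 in all. A gene with more starts has more chances of a promoter peak, and the shares and percentiles below were not adjusted for this. All 8 members had an H3K27Ac promoter peak in sgNeg, where 79.1% of protein-coding genes had 1, and all 8 had 1 in sgNpm1A, where 57.0% had 1. No member lost every promoter peak, beside 34.0% of all genes with a sgNeg promoter peak and 40.1% of those at or above the 95th percentile. Each peak was ranked by fold within its own list, with 100 as the highest percentile. The median percentile of the members' highest promoter peak was 98.0 in sgNeg and 76.5 in sgNpm1A, beside 92.4 and 23 over all protein-coding genes, a gene without a peak counting as 0. Within 1 kb of the main start alone, 6 members had a sgNpm1A peak, at percentiles from 3.21 (IRF3) to 76.3 (IRF5), and IRF2 and IRF9 had none. The percentile of the highest promoter peak was lower in sgNpm1A at 8 of 8 members and at 82.9% of all genes with a sgNeg promoter peak. The direction is thus shared with most genes. In sgNeg 6 of 8 members stood at or above the 95th percentile, as did 9111 of 20162 genes, and in sgNpm1A 0 of 8. The all-gene count at that level in sgNpm1A was not taken, so nothing about the members is read from these counts.

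**Figure D1:**
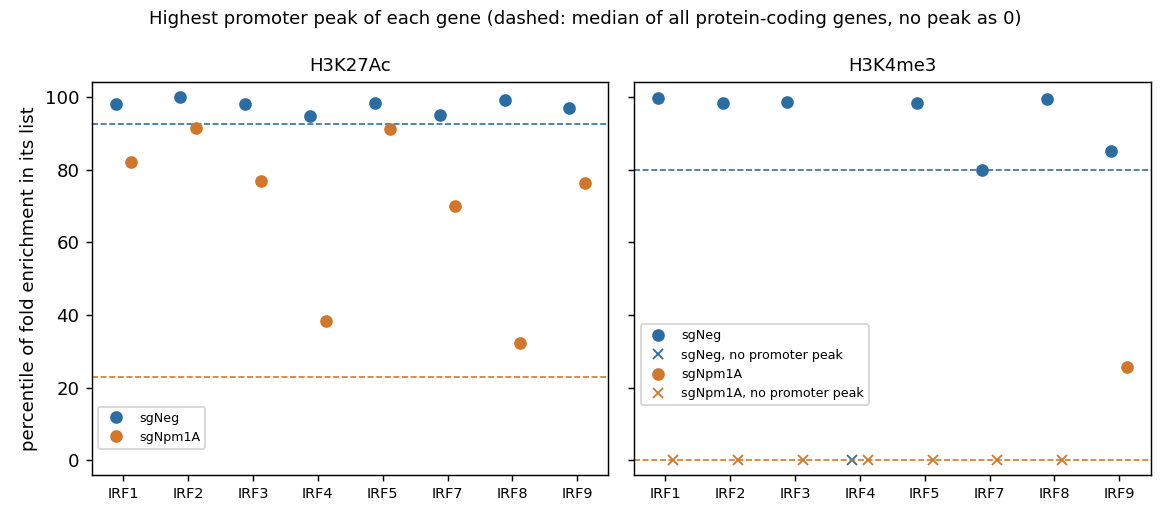
Percentile of fold enrichment, within its own list, of the highest promoter peak of each IRF gene for H3K27Ac (left) and H3K4me3 (right), in sgNeg (blue) and sgNpm1A (orange), with crosses at 0 where no promoter peak was listed and dashed lines at the median of all protein-coding genes. H3K27Ac points lie at 94.9 or above in sgNeg and between 32.2 and 91.4 in sgNpm1A, and for H3K4me3 IRF9 alone keeps a point in sgNpm1A.

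Among the factors that act below microbial sensors, IRF3, which drives early interferon-beta expression, had a 3789 bp sgNeg H3K27Ac promoter peak of 4.82-fold at percentile 98.0. In sgNpm1A the highest was a 146 bp peak of 3.19-fold at percentile 76.7, 3.14 kb into the gene. The sgNeg peak covered the IRF3 start, and the sgNpm1A peak was at an internal start. BCL2L12 starts 0.715 kb from IRF3 on the other strand and shared its sgNeg peak, so the sgNeg value belongs to both genes. Nearest to the IRF3 start, sgNpm1A had a 462 bp peak of 2.66-fold at percentile 3.21, from -1.40 to -0.942 kb, which was also within 1 kb of a BCL2L12 start. IRF5, a factor of Toll-like receptor signaling, went from a 5515 bp peak of 5.08-fold (98.4th percentile) over its start to a 1916 bp peak of 3.50-fold (91.3rd percentile) 7.32 kb into the gene. IRF7, which amplifies type I interferon expression, went from a 6069 bp peak of 3.72-fold (94.9) to a 3267 bp peak of 3.11-fold (70.0) that began 0.34 kb after the start. IRF7 had the lowest sgNeg fold of these 3 genes and the widest sgNpm1A peak among the highest promoter peaks of the 8 members.

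IRF9, the DNA-binding subunit of the interferon-activated complex ISGF3, had a sgNeg H3K27Ac promoter peak of 2704 bp and 4.23-fold at percentile 96.9. This sgNeg peak also lay within 1 kb of an RNF31 start, so its value belongs to both genes. In sgNpm1A the highest IRF9 promoter peak was 1681 bp wide and 3.19-fold at percentile 76.3, and it lay 2.81 kb after the main start. IRF1, the activator induced by interferon-gamma, had a 3421 bp peak of 4.82-fold (98.0) over its start in sgNeg, and in sgNpm1A a 674 bp peak of 3.28-fold (82.2) 18.5 kb past it. Nearer to the IRF1 start, sgNpm1A peaks of 786 bp and 3860 bp flanked it, at 2.99-fold and 3.18-fold. IRF2, the antagonist of IRF1, had the highest fold of all members in sgNeg, 9.36, which ranked 204 of 327715 peaks (99.9th percentile) over a width of 3415 bp. No sgNpm1A H3K27Ac peak lay within 1 kb of its main start, and its sgNpm1A promoter peak was a 315 bp peak of 3.51-fold at an internal start 82.4 kb into the gene. IRF2 therefore went from the first place among the members to no peak at the main start.

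IRF4 and IRF8, the blood cell factors that pair with PU.1, had the narrowest and the widest sgNeg peak when each of the 8 genes was given by its highest promoter peak. At IRF4, which acts mainly in lymphoid cells, the sgNeg H3K27Ac promoter peak was 152 bp wide and 3.71-fold (94.9th percentile), 214 bp after the start. The sgNpm1A peak was 1214 bp wide and 2.86-fold (38.3). IRF4 was the member with the lowest sgNeg fold, and the one whose peak was wider in sgNpm1A. At IRF8, the sgNeg promoter peak ran over 42939 bp, from position -907 to 42031 bp relative to the start, at 5.91-fold (99.1st percentile, rank 2906). By width it ranked 8 of 327715 peaks. In sgNpm1A the IRF8 promoter peak was 604 bp wide and 2.82-fold (32.2), and began 501 bp after the start. By each gene's highest promoter peak, IRF8 had the lowest fold and percentile of the 8 in sgNpm1A, while at the main start alone the IRF3 peak was lower, at 2.66-fold, and IRF2 and IRF9 had none.

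**Figure D2:**
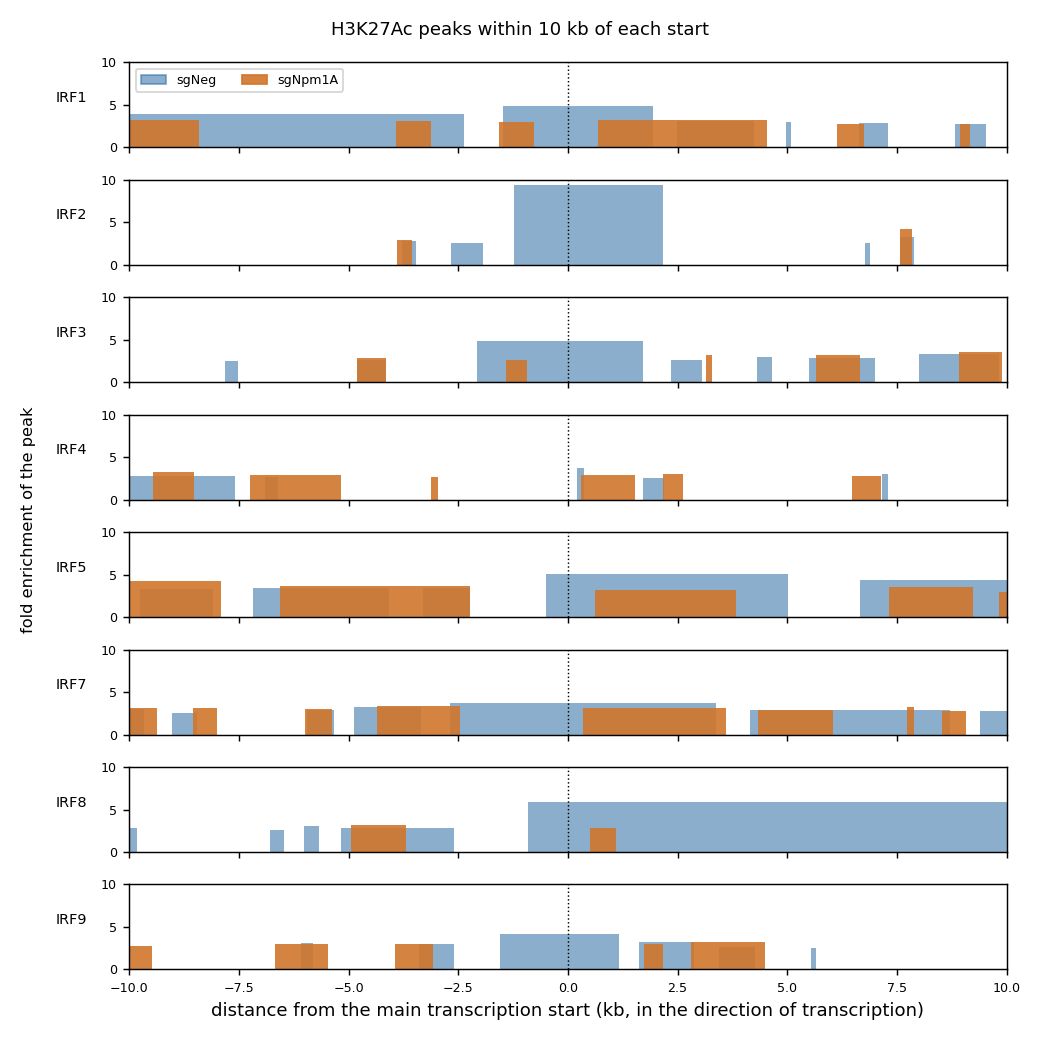
H3K27Ac peaks within 10 kb of the main start (dotted line) of each IRF gene, drawn at their deposited fold enrichment in sgNeg (blue) and sgNpm1A (orange), with distance in kb in the direction of transcription. In sgNeg a peak lies over the start of 7 of 8 genes, IRF4 being the exception, and in sgNpm1A no peak lies over any of the 8 starts.

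The position of the peaks differed as well. The main start itself lay under a sgNeg H3K27Ac peak in 7 of 8 members and in 53.0% of 19881 genes with a main start, and under a sgNpm1A peak in 0 of 8 members and in 6.81% of genes. Within 1 kb of the main start, a definition chosen after seeing the data, 8 of 8 members had a sgNeg peak and 6 of 8 a sgNpm1A peak, beside 72.1% and 32.6% of genes. IRF2 and IRF9 were the members without a sgNpm1A peak there. What remained listed in sgNpm1A thus lay beside the starts, as at IRF7, IRF5 and IRF1, where the peaks began 0.34 to 0.676 kb after them.

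H3K4me3 occupancy at the IRF starts was listed for 7 of 8 members in sgNeg and for 1 of 8 in sgNpm1A, beside 65.1% and 7.61% of protein-coding genes. Here 1 start per gene, that of the RefSeq gene record, was used. The sgNeg peak of IRF1 was the highest, at 10.6-fold (99.6th percentile), 1846 bp and 50 fragments. IRF8 followed at 9.57-fold (99.4th percentile), with 45 fragments at the summit (95% Poisson interval 32.8 to 60.2, counting error only). IRF3, IRF2 and IRF5 stood at 7.70-fold, 7.49-fold and 7.07-fold, over 1083, 1710 and 1358 bp. The counting interval of IRF8 held the 50 fragments of IRF1 and the 36, 35 and 33 fragments of these 3 genes, so its place among the 5 is not resolved by counting. The interval of IRF1, 37.1 to 65.9, lay above those 3 counts, and the intervals of the genes overlapped. IRF9 at 4.16-fold and IRF7 at 3.95-fold were lower, with 19 and 18 fragments over 342 and 879 bp. IRF4 had no H3K4me3 promoter peak in either list.

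In sgNpm1A the H3K4me3 promoter peak of IRF9 was 335 bp wide and 3.31-fold, with 12 fragments at percentile 25.6. It lay at -0.805 to -0.471 kb from the IRF9 start and overlapped no sgNeg peak, so that no member kept a sgNeg H3K4me3 promoter peak in place. The percentile was lower in sgNpm1A for all 7 members with a sgNeg promoter peak and for 96.6% of such genes. Over all genes with a sgNeg H3K4me3 promoter peak, 90.9% had none in sgNpm1A, and of those at or above the 95th percentile in sgNeg 97.4% had none. The loss at IRF1, IRF2, IRF3, IRF5 and IRF8, all at or above that percentile, is the same as at nearly all such genes.

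IRF8 stood out in H3K4me3 by width rather than by fold. The peak after its start was 4991 bp wide, from 0.087 to 5.08 kb, and ranked 12 of 353628 sgNeg peaks by width, whereas the other members' peaks spanned 342 to 1846 bp. A further peak of 939 bp and 9.36-fold ended at -0.112 kb from the start. The start thus lay in an uncovered gap of 198 bp between them. No member's start base lay under an H3K4me3 peak, beside 11.3% of genes in sgNeg and 1.7% in sgNpm1A. IRF1, IRF2, IRF3 and IRF9 also had H3K4me3 peaks on both sides of an uncovered start in sgNeg, with gaps of 902, 551, 376 and 898 bp, beside 25.2% of 12442 genes with a sgNeg promoter peak. Over the whole IRF8 gene body, 28.8% lay under H3K4me3 peaks in sgNeg and 0 peaks were listed in sgNpm1A.

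**Figure D3:**
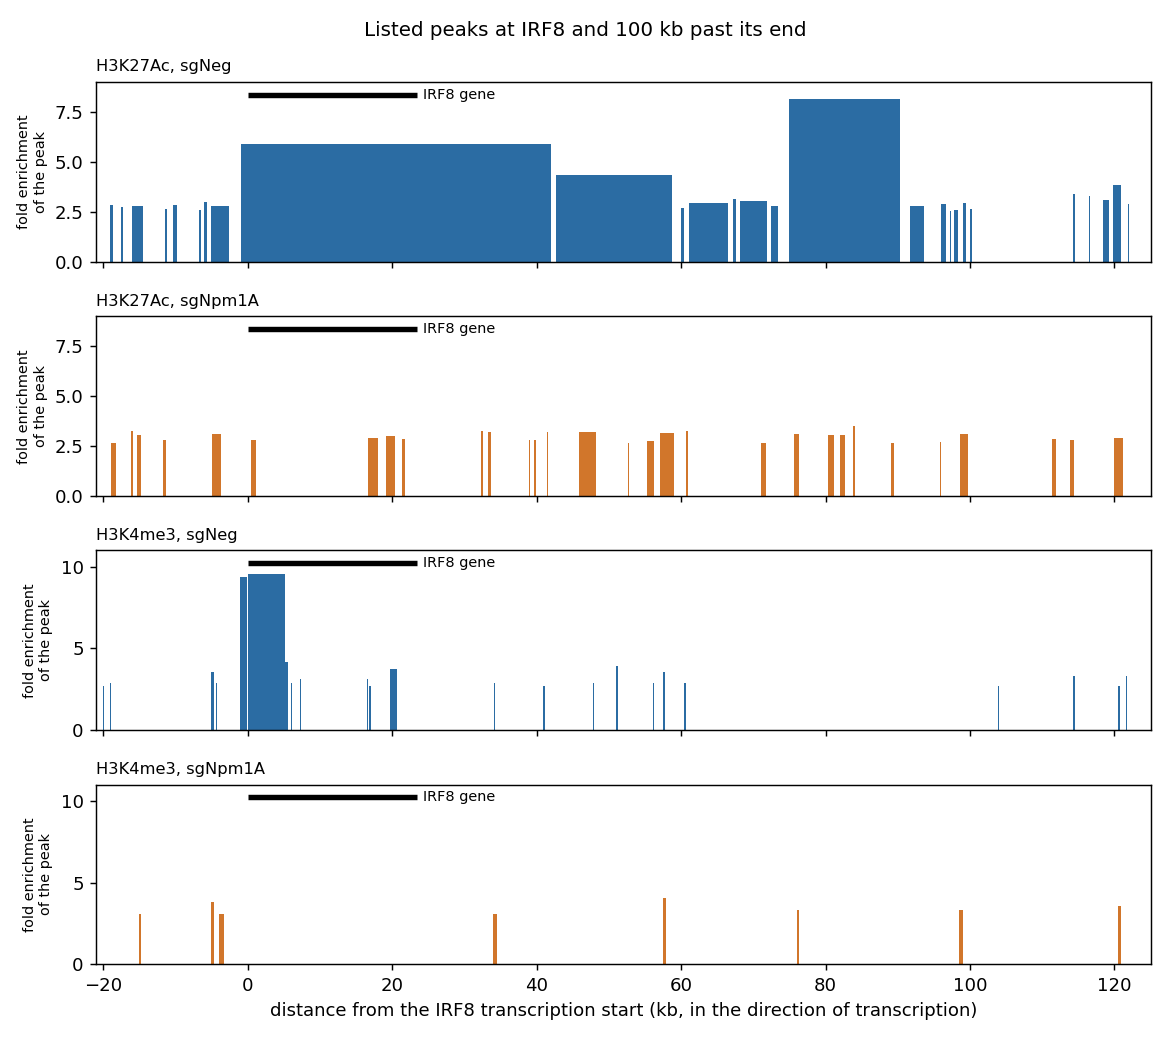
Peaks at IRF8 and the 100 kb past its end in the 4 lists, each bar spanning a peak and reaching its fold enrichment, against distance from the IRF8 start in kb; the black line is the gene. In sgNeg H3K27Ac 3 wide peaks of 42.9, 16.2 and 15.3 kb fill most of the first 90 kb, and in sgNpm1A 30 peaks of at most 2386 bp lie scattered over the whole region drawn.

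Across the IRF8 locus, sgNeg H3K27Ac occupancy formed wide domains that were fragmented in sgNpm1A. The gene body lay under peaks over 100% of its length in sgNeg and 15.4% in sgNpm1A. The first 20 kb past the end went from 97.0% to 6.13%, and the next 3 stretches of 20 kb from 90.6% to 27.6%, from 83.8% to 12.7% and from 54.4% to 9.03%. In the last stretch, 80 to 100 kb past the end, 12.7% and 11.8% lay under peaks, and in the 20 kb upstream 35.7% and 14.9%. Coverage was thus lower in sgNpm1A in each of these sections, upstream included, and nearly equal in the last.

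Past the promoter domain, a peak of 16157 bp and 4.38-fold (97.2nd percentile) followed at 42.6 to 58.8 kb from the start. The downstream peak at 74951 to 90293 bp from the start, chr16:86007719-86023061, was 15343 bp wide and 8.17-fold, at rank 525 of 327715 (99.8th percentile). Its fold was above that of the IRF8 promoter domain itself, 5.91. In sgNpm1A the highest fold over the whole locus was 3.53, for a 249 bp peak inside this stretch, 83.8 kb from the start. When the 3 wide peaks were divided into 296 windows of 250 bp, ISRE letters stood in 5.07% of them, against 2.99% of 48590 windows from the 815 sgNeg peaks of at least 10 kb. In the 15343 bp downstream peak they stood in 9.84% of 61 windows, which is 6 windows. In the promoter domain they stood in 4.09% of 171 windows and in the 16157 bp peak in 3.12% of 64 windows, nearer to the 2.99%. EICE and GAS letters stood in 1.35% and 5.41% of the 296 windows against 2.22% and 6.63%.

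Wide sgNeg H3K27Ac peaks elsewhere in the genome were also covered little in sgNpm1A. Of the length of the IRF8 promoter domain, 11.3% lay under sgNpm1A peaks, and of the 815 sgNeg peaks of at least 10 kb 29.6% had less. The downstream peaks of 16.2 and 15.3 kb had 31.5% and 16.6% of their length covered, beside a median of 25% over the 815 peaks. For H3K4me3, 0% of the 4991 bp IRF8 peak was covered, as for 57.6% of the 658 sgNeg peaks of at least 2 kb. The low sgNpm1A coverage of the wide IRF8 peaks was therefore shared with many wide peaks.

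Coverage of the whole region, the percent of its length under listed peaks, set IRF8 apart from the other members for H3K27Ac. The IRF8 region with its downstream 100 kb lay under peaks over 68.5% of its length in sgNeg and over 14.0% in sgNpm1A, which gives a ratio of 0.204. With 20 kb on both sides only, as for the other members, the values for IRF8 were 78.8% and 12.3%, with a ratio of 0.156. IRF8 held place 1 of 8 in sgNeg and place 7 in sgNpm1A, and its ratio was the lowest of the 8. Ranked among all genes, that sgNeg coverage stood at the 99.6th percentile and that of sgNpm1A at the 67.3rd, and 7.73% of genes had a lower ratio (6.51% in windows of the same asymmetric shape). The all-gene medians were 9.81% and 6.73%.

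The other members spread widely in H3K27Ac coverage. In sgNeg IRF1 had 59.4%, IRF5 49.3%, IRF3 46.7%, IRF7 43.0%, IRF9 36.2%, IRF2 14.5% and IRF4 11.2% of their regions under peaks. The corresponding sgNpm1A values were 21.1%, 35.8%, 14.5%, 29.3%, 24.6%, 5.89% and 20.0%. IRF3, IRF1 and IRF2 had ratios of 0.310, 0.355 and 0.406, while IRF9, IRF7 and IRF5 at 0.680, 0.681 and 0.726 stood near the all-gene median of 0.722. With IRF8, 4 of 8 members had at most 0.5 times their sgNeg coverage, beside 31.5% of genes, and with 8 genes this is not read as a result about the family. IRF4 was the only member with more coverage in sgNpm1A, with a ratio of 1.79, and 32.9% of genes had more.

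**Figure D4:**
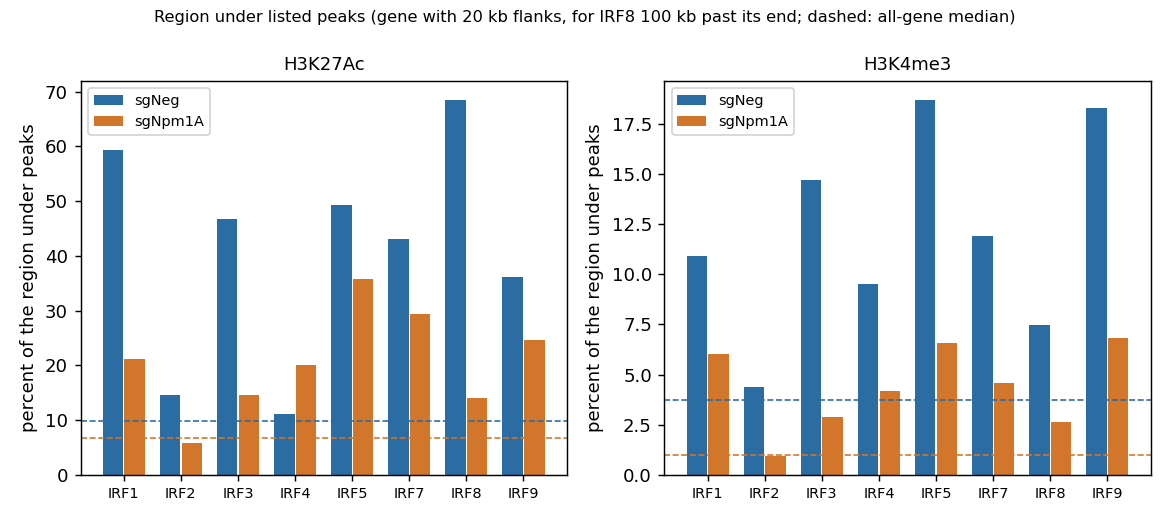
Percent of each IRF gene region under H3K27Ac (left) and H3K4me3 (right) peaks in sgNeg (blue bars) and sgNpm1A (orange bars), with dashed lines at the all-gene medians; regions are the gene with 20 kb on either side, and for IRF8 100 kb past its end. IRF8 has the tallest sgNeg H3K27Ac bar at 68.5% and falls to 14.0%, and only the IRF4 pair rises, from 11.2% to 20.0%.

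H3K4me3 coverage was lower in sgNpm1A for all 8 members. It went from 18.7% to 6.58% at IRF5, from 18.3% to 6.83% at IRF9 and from 14.7% to 2.89% at IRF3. For IRF7, IRF1 and IRF4 it went from 11.9% to 4.59%, from 10.9% to 6.02% and from 9.54% to 4.20%. IRF8 with its downstream 100 kb went from 7.46% to 2.63%, and IRF2 from 4.39% to 0.944%. Coverage was at most 0.5 times that of sgNeg in 7 of 8 members and in 65.6% of genes, IRF1 being the exception at 0.552. No member had higher coverage, beside 5.97% of genes. The IRF8 ratio of 0.353 compares with an all-gene median of 0.397 in windows of the same asymmetric shape, where 44.1% of genes had a lower ratio. With 20 kb on both sides, IRF8 went from 13.8% to 3.22%, a ratio of 0.234, beside an all-gene median of 0.342. IRF3 at 0.197 and IRF2 at 0.215 were lower, as were 38.9% of genes. Region lengths differ between marks, chiefly at IRF1, whose record is 68280 bp long on GRCh37 and 9165 bp on GRCh38.

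**Figure D5:**
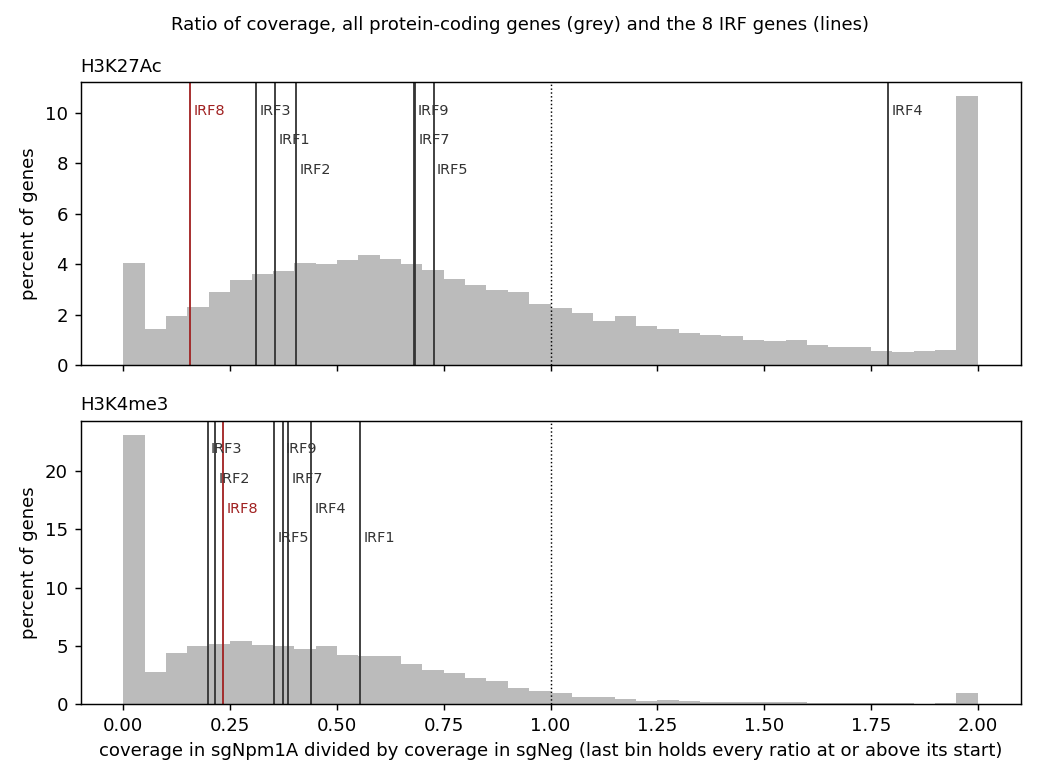
Distribution over all protein-coding genes (grey, percent of genes) of the coverage in sgNpm1A divided by that in sgNeg, for H3K27Ac (upper) and H3K4me3 (lower), with a line at each IRF gene (20 kb on either side of every gene) and the last bin holding all higher ratios. For H3K27Ac IRF8 lies lowest of the 8 at 0.156 and IRF4 highest at 1.79, and for H3K4me3 the 8 genes lie between 0.197 and 0.554.

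Distal peaks were narrow for the most part. For H3K27Ac these were the peaks away from any annotated start. For H3K4me3 they were the peaks away from the start of each RefSeq gene record, so a peak at an alternative start counted as distal. The members' regions held 124 distal H3K27Ac peaks in sgNeg and 110 in sgNpm1A, with median widths of 461.5 and 457 bp, and 140 and 41 distal H3K4me3 peaks, with median widths of 203.5 and 361 bp. Of the sgNeg distal peaks, 51.6% overlapped a sgNpm1A peak for H3K27Ac and 20.0% for H3K4me3, beside 50.7% and 22.6% of all sgNeg peaks. Of the sgNpm1A distal H3K27Ac peaks, 81.8% overlapped a sgNeg peak, beside 51.4% of the whole sgNpm1A list, promoters included. The member regions lay under sgNeg peaks over 11.2% to 68.5% of their length, beside an all-gene median of 9.81%. An overlap is more likely where coverage is high, so nothing about the members is read from these shares. IRF8 held 26 distal sgNeg H3K27Ac peaks that summed to 55372 bp, and 29 in sgNpm1A that summed to 19439 bp. IRF1 was the only other member with a sgNeg peak of at least 10 kb, namely a 13282 bp peak of 6.09-fold (99.2nd percentile) 61.1 to 74.4 kb past its start, chr5:131752037-131765318, and a 10591 bp peak of 3.94-fold at -13.0 to -2.37 kb from it, which reached an alternative IRF1 start. The part of the first stretch inside the IRF1 region, which reaches 20 kb past the gene, held sgNpm1A peaks of at most 1441 bp.

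In the sgNpm1A list some distal H3K27Ac peaks were higher than any promoter peak of the same gene. At IRF2 a 284 bp peak of 4.21-fold (98.6th percentile) lay 7.56 kb into the gene, and at IRF5 a 2090 bp peak of 4.23-fold (98.7) began at -9998 bp from the start. At IRF4 the highest sgNpm1A peak was 615 bp wide and 3.80-fold, at -15.4 kb. At IRF3 and IRF9 the highest sgNeg peaks near the genes belonged to neighbors. The 6.93-fold H3K27Ac peak past IRF3 lay at RRAS and SCAF1 and the 6.44-fold peak before it at PRMT1, and the 5.31-fold peak before IRF9 lay at PSME2 and RNF31. Neighboring genes were taken by 1 start each, so PHRF1 near IRF7 and IPO4 near IRF9, with another start in the region, were left out. Of the 11 genes taken, 10 had an H3K27Ac promoter peak in sgNeg and 8 in sgNpm1A, beside 79.1% and 57.0% of all genes. For H3K4me3, with promoters also at 1 start per gene, it was 7 and 1 of 10, beside 65.1% and 7.61%.

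Regions ranked as in a super-enhancer analysis gave another view. H3K27Ac peaks within 12.5 kb of each other were joined, and each joined region was ranked by adding up length times fold over its peaks. In sgNeg the region over the IRF8 start ranked 60 of 49245, ahead of IRF5 at 184, IRF3 at 192, IRF7 at 216, IRF1 at 342, IRF9 at 705, IRF4 at 1001 and IRF2 at 1082. All 8 were among the 1141 regions above the bend of the ranked curve, which held the main start of 30.2% of 19881 genes. In sgNpm1A IRF8 ranked 2269 of 52913, IRF1 1575, IRF3 2085 and IRF2 9490, below the 988 regions above the bend, whereas IRF5 at 150, IRF4 at 370, IRF9 at 767 and IRF7 at 853 were among them, beside 19.8% of genes. IRF8 fell from the highest rank of the 8 to the second lowest, and IRF4 and IRF5 ranked higher in sgNpm1A than in sgNeg. These regions are long, 580 kb for IRF8 in sgNeg and 91.2 kb in sgNpm1A, and hold other genes. With peaks joined within 5 kb, IRF8 ranked 53 of 107881 in sgNeg and 20721 of 120270 in sgNpm1A, and the calls of other members changed. A region above the bend then held the main start of 5 of 8 members in sgNeg, namely IRF1, IRF3, IRF5, IRF8 and IRF9, beside 19.7% of genes. In sgNpm1A it was 4 of 8, namely IRF1, IRF4, IRF5 and IRF7, beside 9.12% of genes.

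The profile of IRF8 was next compared with all genes over 8 values, namely the percentile of the highest promoter peak and the percentile of region coverage in each of the 4 lists. The 5 nearest of 19101 genes by mean absolute difference were GAPDH, a glycolytic enzyme (2.31 percentile points), POLR2E, a subunit shared by RNA polymerases (2.77), FAM78A (2.95), GSK3A, a serine/threonine kinase (3.34), and CCNL2, a cyclin of RNA processing (3.57). GAPDH stood at percentiles 99.5 and 36.1 for H3K27Ac promoters in sgNeg and sgNpm1A, beside 99.1 and 32.2 for IRF8, and neither gene had a sgNpm1A H3K4me3 promoter peak. The nearest other member was IRF3, with a difference of 7.66 points, and IRF4 was farthest at 23.3. On these values, which leave out peak width, IRF8 was closer to these 5 genes than to any other member.

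The other genes of interferon signaling are given beside the all-gene shares with a promoter peak, 79.1% in sgNeg and 57.0% in sgNpm1A for H3K27Ac and 65.1% and 7.61% for H3K4me3. Fewer genes of each list had a peak in sgNpm1A, which is the direction of genes as a whole, and nothing particular to these lists is read from the counts. Of 7 receptor and kinase genes, 7 had an H3K27Ac promoter peak in sgNeg and 3 in sgNpm1A, and 7 and 0 had an H3K4me3 promoter peak. The highest by sgNeg H3K27Ac percentile were IFNGR2, a chain of the interferon-gamma receptor (8.70-fold), JAK2, its kinase (6.99-fold), neither with a sgNpm1A peak, and IFNAR2 of the type I receptor (6.54-fold and 2.88-fold). Of 10 STAT factors and IRF partners, 10 and 7 had an H3K27Ac promoter peak and 9 and 0 an H3K4me3 promoter peak. The acetyltransferase genes EP300 and CREBBP went from 12.3-fold to 3.16-fold and from 7.67-fold to 3.39-fold for H3K27Ac. SPI1, which encodes the PU.1 partner of IRF8, went from 10.5-fold to 2.83-fold, with a sgNeg H3K4me3 peak of 4340 bp beside 4991 bp at IRF8.

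Of 18 nucleic acid sensors and adaptors, which act above IRF3, IRF5 and IRF7, 15 had an H3K27Ac promoter peak in sgNeg and 7 in sgNpm1A, and 15 and 1 an H3K4me3 promoter peak. CGAS, the cytosolic DNA sensor, was at 9.08-fold in sgNeg with no peak in sgNpm1A, and STING1, its adaptor, went from 8.48-fold to 2.66-fold. The third was IKBKE, a kinase of IRF3 and IRF7, from 5.94-fold to 3.06-fold. Of 32 interferon-stimulated genes, the targets of IRF9 and IRF1, 28 and 18 had an H3K27Ac promoter peak, and 16 and 0 an H3K4me3 promoter peak. The highest 3 were ADAR, an RNA-editing enzyme (6.69-fold and 3.29-fold), BST2, a restriction factor (5.62-fold and 3.17-fold), and B2M, the MHC class I light chain (5.58-fold and 2.90-fold). Of these 32 genes, 16 had a sgNeg H3K4me3 promoter peak, beside 65.1% of all protein-coding genes, and the others counted as 0. Their median sgNeg H3K4me3 promoter percentile of 24.8 is therefore a midpoint that no gene had. It lay between 0 and the lowest listed peaks, at 49.6 for OAS3 and SP100. The median of the IRF genes was 98.3, and nothing is read from the difference.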

How the data were processed

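H3K27Ac and H3K4me3 were measured in OCI-AML3 cells with sgNeg or sgNpm1A, 1 library each. Groups were taken from the sample titles, and the 2 inputs were not analysed here. The submitters' processing notes name bcl2fastq 2.17, Trimmomatic 0.33, Bowtie 1.1.2, MACS2 2.1.0 and deepTools. Their roles, the calling threshold and the use of inputs were not stated. The deposited fold enrichment is a ratio to background, averaged over the broad H3K27Ac region and taken at the summit for H3K4me3. Each deposited −log10 p-value or −log10 q-value served for thresholds only, and the deposited score was not used. The submitters' notes name hg38, but H3K27Ac peaks on chromosome 1 ended at 249218478, past its end in hg38, so GENCODE version 44 mapped to GRCh37 was used for them, and RefSeq GRCh38 records for H3K4me3. Nothing was converted between builds. The sequence before the IRF8 start is not reported here. Peak edges may be shifted by a few bases, since no Tn5 correction was stated.

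Peaks were matched to genes by an overlap of at least 1 bp with Python 3.11.15, pandas 2.3.3, numpy 2.4.6 and scipy 1.17.1, and the interval functions were tested on simulated data. With 1 library per group no test was made. All 8 members are named, and of each pathway list the 3 genes with the highest sgNeg H3K27Ac promoter percentile, and the 5 genes nearest to IRF8. Members, lists and alternatives were chosen with earlier results of these data known. Alternatives were stricter thresholds, other promoter and flank sizes, and other starts.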

Additional observations from a re-analysis of the deposited data

Results flagged for a closer look

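At IRF4 the 2 marks moved in opposite directions between guides. H3K27Ac coverage of the gene with 20 kb on either side was higher in sgNpm1A, with a ratio of 1.79, while H3K4me3 coverage was lower, with a ratio of 0.44. Over all genes, H3K27Ac coverage was higher at 32.9% and H3K4me3 coverage at 5.97%, so lower H3K4me3 coverage is the direction of most genes. The IRF4 H3K4me3 ratio lay above the all-gene median of 0.342. Each ratio rests on 1 library per guide, the lists of the marks are on different builds, and the difference was not tested.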

How the results depend on the processing

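Of 52 alternative values, 40 were classed as close to the reported ones, 12 as moved and 0 as reversed. Close was a loose class for 8 members. It held 6 members instead of 4 with at most 0.5 times the sgNeg H3K27Ac coverage (q-values under 1e-05). It also held 5 instead of 7 with a sgNeg H3K4me3 promoter peak (20000 peaks), and 6 instead of 8 with a sgNpm1A H3K27Ac promoter peak (q-values under 0.01). All moves but that with the gene record came from stricter peak thresholds, which remove weak peaks by construction. The ratio of H3K27Ac coverage at IRF8, 0.204 as reported, was 0.107 with q-values under 0.01, and 0 with q-values under 1e-05, with a fold enrichment of at least 4 and with the 20000 peaks of lowest p-value in each list. Under each of these last 3 settings, 0 members had a sgNpm1A promoter peak for H3K27Ac or H3K4me3, instead of 8 and 1, and with q-values under 1e-05 only 5 members kept one for H3K27Ac in sgNeg, instead of 8. With the start of the gene record alone, 4 members had a sgNpm1A H3K27Ac promoter peak. IRF8 held place 1 by sgNeg H3K27Ac coverage under every alternative run. No paired analysis was possible because each group holds 1 library. The sgNpm1A H3K4me3 list has a lower background pileup, 2.93 against 3.81 fragments, and a larger smallest width, 245 against 110 bp. For H3K27Ac the smallest width was 140 bp in sgNpm1A against 110 bp in sgNeg. With 1 library per guide and mark, depth, fragment size and library quality cannot be told apart from guide, for weak or strong peaks.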
